A study of Mus musculus with 24 samples.

Results

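FIP cells of male mice were compared with FIP cells of female mice. Both were sorted by flow cytometry as PDGFRb-positive cells from gonadal white adipose tissue of the C57BL/6 strain, and the labels name no genotype or treatment. The comparison took 6 of the 24 bulk RNA sequencing libraries of the study, 3 labelled M_FIP (male) and 3 labelled F_FIP (female). The other 18 libraries, also 3 a group, were of the gonadal APC subpopulation (M_APC and F_APC) and of inguinal DPP4_neg and DPP4_pos cells (M_DPP4_neg, F_DPP4_neg, M_DPP4_pos and F_DPP4_pos) from mice of the same strain. The genes were all those on the autosomes with a normalised count of at least 10 in at least 3 of the 6 libraries, 12298 of the 27179 genes in the table. A normalised count is a gene's number of reads divided by 1 size factor per library. Of the other autosomal genes, 5826 had no read in the 6 libraries and 5851 had reads but fell below that minimum. The 409 genes just inside the limit, at 10 or more in exactly 3 libraries, had a median 6-library mean of 11.5 normalised counts, and the 263 just outside, with exactly 2 such libraries, one of 8.58. The age of the mice, the gates that separated FIP from APC and whether the 3 libraries of a group came from separate animals are not in the labels. The p-values therefore speak of the spread from library to library, part or all of which may be technical.

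PDGFRb marks cells around blood vessels and in the stroma of fat, among them the precursors of new adipocytes. FIP is the field's name for fibro-inflammatory progenitors, a gonadal subpopulation known for secreting matrix and inflammatory signals and for forming few adipocytes, whereas APC cells are the adipocyte precursors proper. FIP cells share genes such as Dpp4 and Pi16 with the interstitial progenitors of other depots. The gonadal depot lies along the epididymis in males and beside the ovary and uterus in females.

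The 6 libraries held 13114690 to 15477738 reads in M_FIP and 13141218 to 15781178 in F_FIP. Across the tested genes their log2 values correlated with r from 0.9925 to 0.9949 within a sex and from 0.9457 to 0.9509 between the sexes. Replicate 3 of F_FIP stood somewhat apart from the other 2 female libraries, with a chi-square per degree of freedom of 7.26 and 8.48 against them, where they gave 1.65 against each other. The sex labels held: Xist, the X-inactivation transcript, read 0.813 to 5.35 normalised counts in M_FIP and 14221 to 15507 in F_FIP, and the Y-linked Ddx3y 2035 to 2486 in M_FIP and 44.9 to 55.4 in F_FIP. The Y-linked Uty read 221 to 262 in M_FIP and 3.32 to 4.98 in F_FIP, and Kdm5d 198 to 256 and 5.82 to 6.82. Eif2s3y, also Y-linked, read 468 to 490 in M_FIP and 4.98 to 12.5 in F_FIP. All of these Y-linked genes thus had some reads in the female libraries. Their source, and whether it adds to the female values of genes high in males, was not tested. The cell labels held as well. Pi16 averaged 15258 ± 1422 normalised counts (SD, n = 3) in M_FIP against 378 ± 48.9 in M_APC, and 28043 ± 2564 in F_FIP against 3019 ± 405 in F_APC. The adipocyte precursor gene Pparg averaged 161 ± 27.3 in M_FIP against 556 ± 31.2 in M_APC, and 138 ± 14.6 in F_FIP against 509 ± 6.48 in F_APC. Pdgfrb itself, the sorted gene, read 2645, 3009 and 3075 in M_FIP and 1795, 1729.7 and 1786 in F_FIP (log2 fold change of male over female 0.71 ± 0.09, limma, adjusted p = 2.66e-07).

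Sex separated the FIP libraries over a large share of the autosomal genes. A gene was called when limma's adjusted p (Benjamini-Hochberg, over all 12946 genes tested) was under 0.05. Of 12298 autosomal genes 40.4% were called: 2396 were higher in M_FIP (19.5%) and 2569 lower (20.9%). A change of at least 2-fold was called upward for 751 genes (6.11%) and downward for 461 (3.75%). All 3 male libraries lay above all 3 female libraries for 3409 genes (27.7%) and below them for 4000 genes (32.5%). The median log2 fold change of M_FIP over F_FIP was -0.03, and the median absolute change was 0.25. From 36.4% (chromosome 17) to 45.0% (chromosome 15) of the tested genes of an autosome were called. Fold changes are on the scale log2(normalised count + 1) throughout, are given with their standard error (SE), and understate the change of low genes.

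The genes highest in male cells were led by Sult1e1 (chromosome 5, 87575968 to 87591611, GRCm38), the sulfotransferase that inactivates estrogens. Its normalised counts were 8465, 7407 and 7590.1 in M_FIP and 167, 175 and 154 in F_FIP. The male mean was 47.3-fold the female mean (log2 fold change 5.55 ± 0.14, limma, adjusted p = 6.76e-20). Lack of overlap between the groups was a condition for naming the 12 highest genes. Nt5e (chromosome 9, 88327609 to 88372089), the ectoenzyme CD73 that makes extracellular adenosine, read 491, 488 and 538 in M_FIP and 19.1, 16.2 and 10.9 in F_FIP, a 32.8-fold difference of the means. C7 (chromosome 15, 4987750 to 5063773), a component of the terminal complement complex, read 10828, 11024 and 12222 in M_FIP and 508, 552 and 474 in F_FIP. Hmcn2 (chromosome 2, 31314255 to 31460738), which encodes the extracellular matrix protein hemicentin 2, read 12305, 15432 and 14186 in M_FIP and 700.4, 705 and 657 in F_FIP. The male mean was 22.2-fold the female mean for C7 and 20.3-fold for Hmcn2. Cadps, a regulator of dense-core vesicle release, read 315, 305 and 305 in M_FIP and 4.99, 10.2 and 7.96 in F_FIP. Others among the 12 highest were Ifi202b (4.84), Lrrn1 (4.34), Csf2 (4.13), Prrt4 (4.10), Enpp6 (4.08) and Ret (4.06, log2 fold changes). Ifi202b has near-identical neighbours, so its reads are uncertain as those of 1 gene.

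The genes lowest in male cells were at low levels there. That they were well detected in female cells is no finding, since a minimum mean in the higher group was a condition for naming them. Lack of overlap between the groups was a condition here too. Cntn1 (chromosome 15, 92051152 to 92341967), the adhesion molecule contactin 1, read 2.83, 0 and 0.813 in M_FIP and 850.0, 858 and 865 in F_FIP, from 4 reads in all 3 male libraries together and 2898 in the female ones (log2 fold change -8.81 ± 0.30, adjusted p = 2.74e-17). Ngfr (chromosome 11, 95568818 to 95587698), the p75 neurotrophin receptor, read 3.78, 1.78 and 0.813 in M_FIP and 865, 883 and 277 in F_FIP. Ptpn5, a tyrosine phosphatase, read 0.945, 0 and 0 in M_FIP and 242, 232 and 51.8 in F_FIP. Replicate 3 of F_FIP was the lowest female library for Ngfr and Ptpn5, and without it their log2 fold changes were -8.24 and -7.57 in place of -7.69 and -6.85. Ptpn5 had 1 male read, which puts females 620.4-fold (95% interval 111 to 24543) higher. This interval, like the others of its kind below, is exact binomial and covers counting error only. Necab1, a calcium-binding protein gene, read 5.67, 2.68 and 0.813 in M_FIP and 180.3, 202 and 263 in F_FIP. Tmem132b, which encodes a transmembrane protein, read 3.78, 4.46 and 2.44 in M_FIP and 219, 237 and 259.7 in F_FIP. The rest of the 12 lowest were Hoxa11os, Hoxa10, Hoxc10 and Greb1, described below, Emb (-5.52), Kcnv2 (-5.02) and P4ha3 (-4.58), which encodes a collagen prolyl hydroxylase subunit. Replicate 3 was the lowest female library for Emb (262, 295 and 109 in F_FIP) and P4ha3 (175, 150.1 and 62.7) as well, and without it their log2 fold changes were -5.96 and -5.03.

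**Figure D1:**
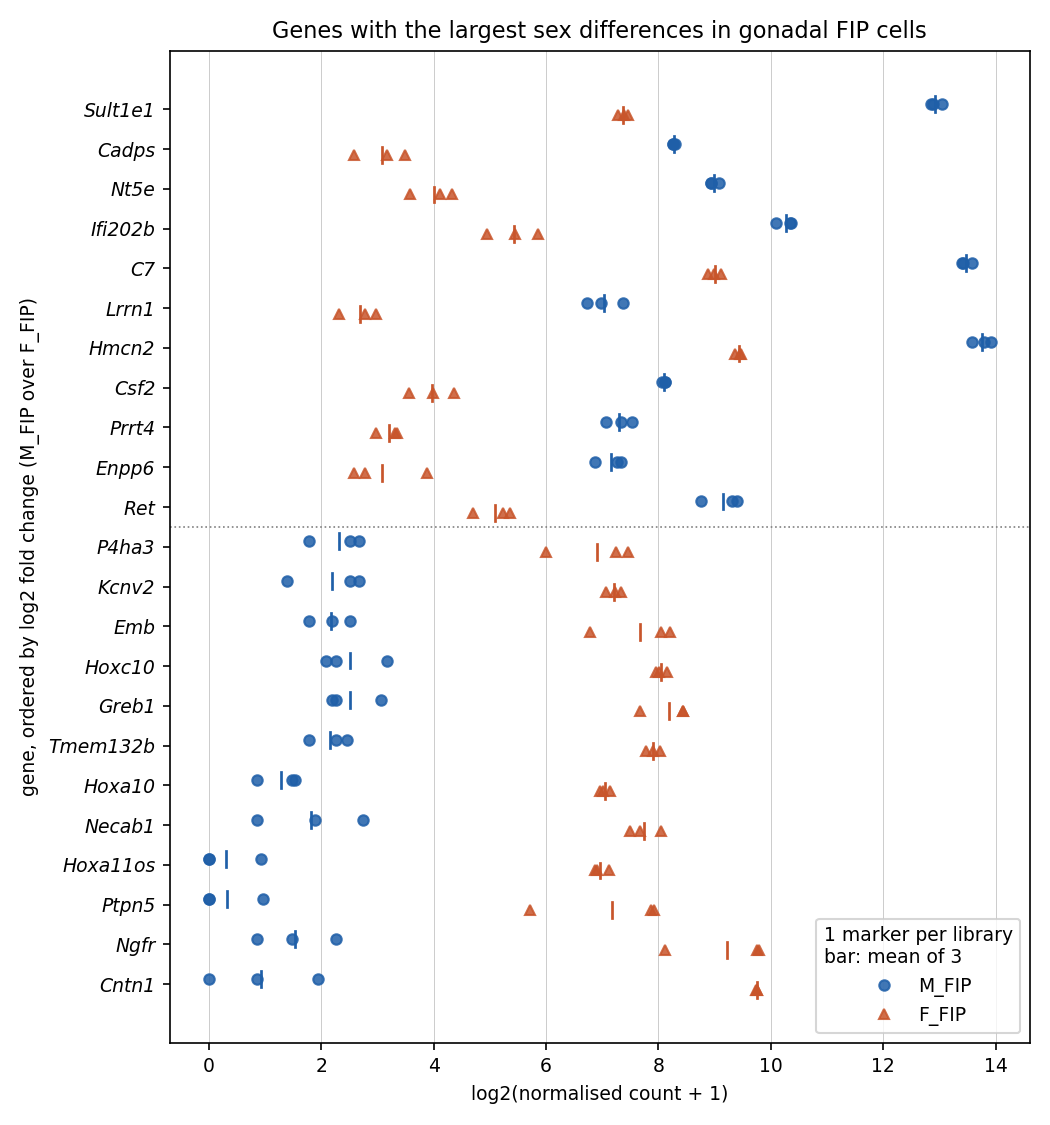
Level of 11 of the 12 genes with the highest log2 fold change and of the 12 with the lowest in each library, on the log2(normalised count + 1) axis; circles are M_FIP, triangles are F_FIP and bars are means of 3. The groups do not overlap for any of the 23 genes drawn, which was a condition for choosing them, and replicate 3 of F_FIP lies below the other female libraries for Ngfr, Ptpn5, Emb, P4ha3 and Greb1.

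The 55 gene lists used below were described by how many of their tested members were called, beside the 19.5% called higher and 20.9% called lower over all autosomal genes and their median log2 fold change of -0.03. Where a list below had 0 genes called in 1 direction by limma, it also had 0 in that direction at an unadjusted p under 0.05 and 0 with edgeR and DESeq2 on the reads, except for 1 macrophage marker at an unadjusted p under 0.05. In sorted bulk RNA, fewer cells of a type and less RNA per cell cannot be told apart.

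**Figure D2:**
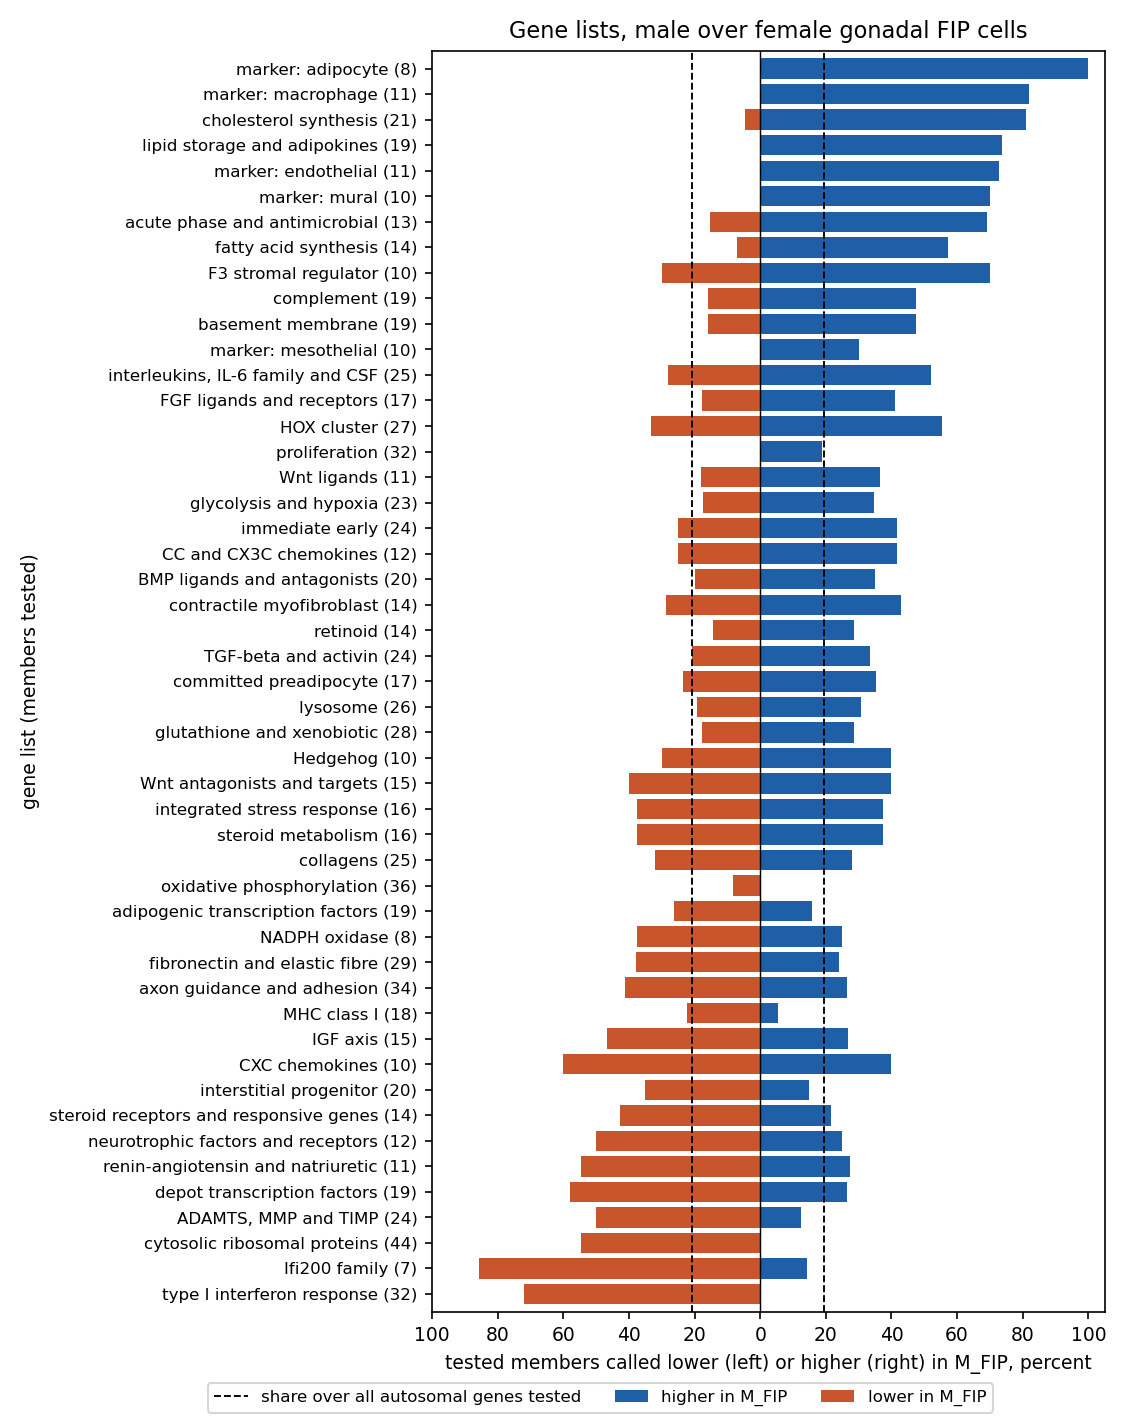
Share of each gene list's tested members called lower (left bars) or higher (right bars) in M_FIP, in percent, with the number of tested members in brackets and dashed lines at the shares over all autosomal genes, 20.9% and 19.5%; lists with fewer than 7 tested members are left out. The adipocyte markers are at the top with 8 of 8 members higher, and the type I interferon list is at the bottom with 23 of 32 lower.

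HOX genes, which carry the positional identity of mesenchymal cells along the body axis, split by their place in the clusters. Of 27 tested, 15 were higher and 9 lower in M_FIP, with a median log2 fold change of 0.87, which is the same with Hoxa11 set to its bound. All 9 lower genes were from paralogue groups 9 to 13, and all 15 higher ones from groups 2 to 8. Hoxc10 (chromosome 15, 102966796 to 102971898) read 3.78, 8.03 and 3.25 in M_FIP and 283, 257 and 247 in F_FIP (log2 fold change -5.53 ± 0.25, adjusted p = 4.53e-15). Hoxa10 read 1.89, 1.78 and 0.813 in M_FIP and 129, 124 and 140.3 in F_FIP. Hoxa11 had no read in the 3 male libraries and read 114, 88.7 and 93.5 in the female ones, at least 112.6-fold higher against a floor of 3 reads over the group. The antisense gene Hoxa11os followed it with 116, 119 and 138 in F_FIP and 1 read in M_FIP. The strand setting of the counting was not given, so reads of Hoxa11 and Hoxa11os cannot be told apart. Hoxa9 (-3.97), Hoxd9 (-1.79) and Hoxd10 (-3.49) were lower too. Hoxa13, Hoxc11 and Hoxd11 each had 1 male read and 43, 60 and 56 female reads.

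On the other side of the clusters the male level was the higher one. Hoxc8 read 778, 716 and 692 in M_FIP and 127, 137 and 110.5 in F_FIP (log2 fold change 2.54 ± 0.13, adjusted p = 7.42e-14). Hoxa5 read 309.9, 317 and 367 in M_FIP and 103, 109 and 97.5 in F_FIP. Hoxb2 read 201, 186 and 213 in M_FIP and 54.8, 41.8 and 53.7 in F_FIP. The groups did not overlap for any of these 3 genes, beside 27.7% of all autosomal genes with every male library higher. The fold changes of the 15 higher genes ran from 0.79 for Hoxc6 to 2.54 for Hoxc8. Hoxb6 (0.51), Hoxc9 (0.02) and Hoxd8 (-0.06) were not called. Hoxa6 (1.06) lost its call without replicate 1 or 3 of F_FIP or replicate 2 of M_FIP (adjusted p 0.0632 to 0.0865). Hoxb7 (0.87) lost it without replicate 1 or 2 of F_FIP or replicate 1 of M_FIP (adjusted p 0.0510 to 0.125) and with quantile normalization (adjusted p = 0.0526).

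**Figure D3:**
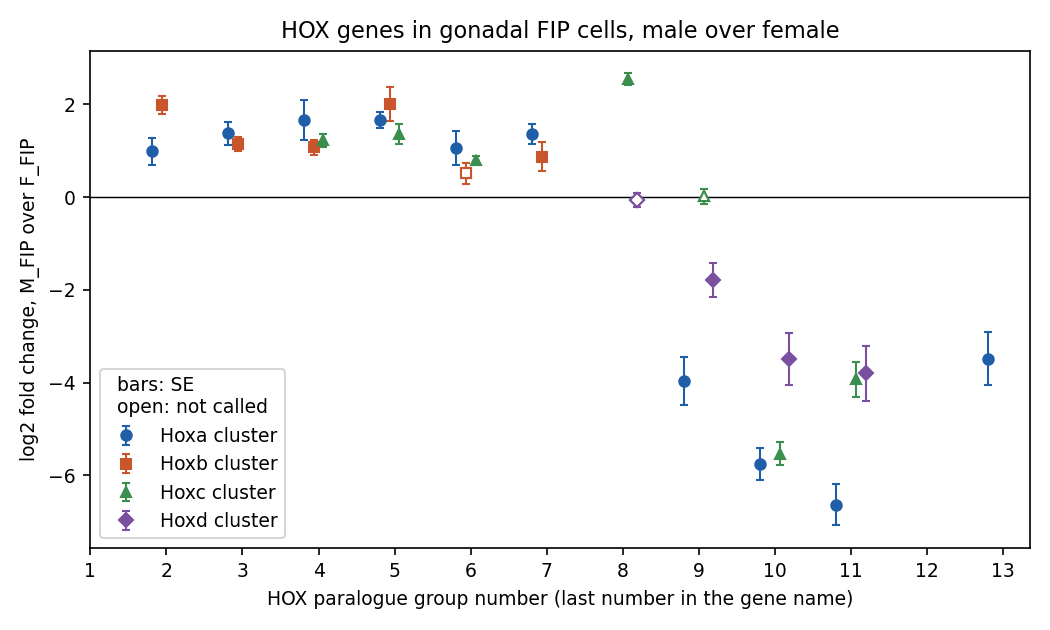
Log2 fold change of M_FIP over F_FIP for the 27 tested HOX genes against the paralogue group number, on the log2(normalised count + 1) scale; error bars are SE, colours and shapes are the 4 clusters and open symbols are genes not called. Called genes of groups 2 to 8 lie above 0 and called genes of groups 9 to 13 below it.

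The APC cells of the same depot had a like HOX pattern, and inguinal cells another. The sex difference of FIP differed from that of APC for 1 of the 27 genes, Hoxb6, where 12.2% of all autosomal genes passed that test. It differed from that of inguinal DPP4_pos cells for 16, where 38.2% of all did. Hoxc10 averaged 7.11 ± 3.54 in M_APC and 308 ± 15.3 in F_APC (SD, n = 3), and 221 ± 8.49 and 245 ± 37.4 in M_DPP4_pos and F_DPP4_pos. Its level in F_FIP was thus near that of inguinal cells of both sexes, and its level in M_FIP was not. Hoxa11 went otherwise: it averaged 98.7 ± 13.3 in F_FIP and 114 ± 5.34 in F_APC, and at most 2.26 in the inguinal groups. The difference between the sex differences of FIP and DPP4_pos was -5.40 ± 0.35 on the log2 scale for Hoxc10 (adjusted p = 2.23e-11).

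Of 19 other transcription factors linked to depot or position, 11 were lower in M_FIP and 5 higher, with a median of -0.29. Without replicate 1 or 2 of F_FIP or replicate 2 of M_FIP 7 were lower, and without replicate 3 of either sex 3 were higher. Pitx1, the hindlimb determinant, had 3 male reads and read 59.0, 60.6 and 49.8 in F_FIP, a ratio of 64.6-fold (95% interval 21.8 to 316). Tbx15, known from inguinal and other subcutaneous fat, read 2.83, 0.892 and 0.813 in M_FIP and 39.1, 50.3 and 16.9 in F_FIP, with replicate 3 of F_FIP the lowest female library. Osr2 read 286, 327 and 340.5 in M_FIP and 1772, 1616 and 1431 in F_FIP (log2 fold change -2.33 ± 0.13). Emx2, a regulator of urogenital development, read 56.7, 62.4 and 60.9 in M_FIP and 248, 242 and 235 in F_FIP (-1.99 ± 0.13). The groups did not overlap for these 4 genes, beside 32.5% of all autosomal genes with every male library lower. Retinoic acid, which patterns HOX expression in the embryo, is made by Aldh1a2. This gene read 257, 267 and 294 in M_FIP and 26.6, 24.7 and 37.8 in F_FIP (log2 fold change 3.18 ± 0.27, adjusted p = 1.10e-09). The retinoid list had 4 of 14 genes higher, with the receptor gene Rara (1.37) and the retinal reductase gene Dhrs3 (0.97) among them, and 2 lower.

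Among sex steroid receptors and genes known to respond to them, 3 of 14 were higher and 6 lower in M_FIP. Esr1, estrogen receptor alpha, read 440.2, 417 and 475 in M_FIP and 1183, 1159 and 1208 in F_FIP (log2 fold change -1.41 ± 0.14, adjusted p = 1.36e-08). Well-known estrogen targets were near 0 in males. Greb1 read 3.78, 3.57 and 7.31 in M_FIP and 346, 345 and 204 in F_FIP (log2 fold change -5.68 ± 0.46), and Pgr, the progesterone receptor, had 1 male read and read 88.1, 70.8 and 29.9 in F_FIP, a ratio of 221-fold (95% interval 39.2 to 8765). In both genes replicate 3 of F_FIP was the lowest female library, and every female library was above every male one. Prlr, the prolactin receptor, read 41.6, 37.5 and 47.9 in M_FIP and 120.5, 134 and 119 in F_FIP (-1.54 ± 0.30). The sex differences of Greb1 and Pgr were larger still in inguinal DPP4_pos cells, at -8.47 and -7.30, and the differences from FIP passed the test (adjusted p = 0.00169 and 0.0386).

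Of 16 steroid-metabolising genes 6 were higher and 6 lower. Beside Sult1e1, the ones with the largest changes were lower in males. Akr1c14 and Akr1c18 encode aldo-keto reductases that act on dihydrosteroids and progesterone. Akr1c14 read 22.7, 18.7 and 22.8 in M_FIP and 385, 407 and 285 in F_FIP. Akr1c18 read 28.3, 25.0 and 32.5 in M_FIP and 311, 336 and 258 in F_FIP. Their log2 fold changes were -3.99 ± 0.30 and -3.35 ± 0.48, in a family whose near-identical copies can share reads. Hsd11b2, which inactivates corticosterone, read 20.8, 20.5 and 27.6 in M_FIP and 196, 198 and 144 in F_FIP (-2.91 ± 0.33, adjusted p = 9.46e-08).

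Markers of interstitial progenitors, which the FIP libraries of both sexes held, went both ways. Of 20 tested, 3 were higher and 7 lower in M_FIP, with a median of -0.19. Pi16, a secreted peptidase inhibitor homologue, read 16023, 16134 and 13617 in M_FIP and 27227, 25986 and 30915 in F_FIP (log2 fold change -0.88 ± 0.23, adjusted p = 0.00358). Dpp4, the dipeptidyl peptidase, read 5096, 4880.4 and 4483 in M_FIP and 7911, 8029 and 9371 in F_FIP (-0.81 ± 0.24, adjusted p = 0.00978). Both were lower in every male library than in any female one, beside 32.5% of all autosomal genes. The Wnt ligand gene Wnt2 read 56.7, 98.1 and 68.3 in M_FIP and 420.4, 434 and 411 in F_FIP (-2.53 ± 0.31). Igfbp5, an IGF-binding protein gene, read 5017, 5092 and 4642 in M_FIP and 22623, 21590.0 and 20640.5 in F_FIP (-2.14 ± 0.15). Sema3c (-0.71), Opcml (-1.08) and Smpd3 (-0.69) were also called lower. Smpd3 rests on replicate 3 of F_FIP, without which its log2 fold change was -0.50 (adjusted p = 0.0829). Bmp7 went the other way with 639.6, 641 and 593 in M_FIP and 211, 227 and 217 in F_FIP (1.51 ± 0.34), as did Stmn4 with 511, 529 and 552 in M_FIP and 137, 139 and 142 in F_FIP (1.92 ± 0.20) and, just past the threshold, Dact2 (0.41), whose call ended without any 1 of the 6 libraries (adjusted p 0.0615 to 0.141). The 10 others were not called, among them Fn1, at 212205, 230864 and 222429 in M_FIP and 214053, 206266 and 200091 in F_FIP, Cd55 (-0.38, adjusted p = 0.0647) and Ly6c1 (-0.23, adjusted p = 0.363), which has near-identical copies.

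Set against APC, several of these markers had a smaller sex difference in FIP. The difference between the sex differences passed the test for 11 of the 20, where 12.2% of all autosomal genes did. Not all of the 11 were smaller in FIP. Bmp7 had a log2 fold change of 1.51 ± 0.34 in FIP and -0.65 ± 0.34 in APC, where it was not called. Its difference was 2.16 ± 0.49 (limma, adjusted p = 0.00383). Pi16 had a log2 fold change of -2.99 ± 0.23 between M_APC and F_APC, and the difference of FIP from APC was 2.11 ± 0.33 (adjusted p = 8.88e-05). For Dpp4 the APC value was -2.71 ± 0.24 and the difference 1.90 ± 0.34 (adjusted p = 0.000467). For Efhd1 they were -3.15 ± 0.25 and 2.98 ± 0.35 (adjusted p = 2.43e-06), with 2522, 2561 and 2316 in M_FIP and 2875, 2835 and 2609 in F_FIP in the FIP libraries themselves.

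Genes of adipocyte lipid storage were higher in M_FIP. Of 19 tested, 14 were higher and none lower, with a median of 0.82. Adipoq, the adiponectin gene, read 62.4, 78.5 and 61.8 in M_FIP and 22.4, 16.2 and 20.9 in F_FIP (log2 fold change 1.72 ± 0.34, adjusted p = 0.000234). Lep, the leptin gene, read 23.6, 21.4 and 14.6 in M_FIP and 0, 2.56 and 2.99 in F_FIP (3.08 ± 0.47, and 2.44 without replicate 1 of F_FIP). Cfd, the adipsin gene, read 266, 266 and 310.4 in M_FIP and 97.2, 65.7 and 61.7 in F_FIP (1.92 ± 0.42). These are low levels. The sexes did not overlap for any of the 3 genes, beside 27.7% of all autosomal genes with every male library higher. In the separate list of committed preadipocyte markers 6 of 17 genes were higher and 4 lower. Fabp4, a fatty acid-binding protein of preadipocytes and endothelium, read 3626, 4217 and 3692 in M_FIP and 1856, 1739 and 2061 in F_FIP (1.03 ± 0.17). The fatty acid transporter gene Cd36 read 2402, 2448 and 2043 in M_FIP and 1108, 1033 and 1028 in F_FIP (1.12 ± 0.13). Lpl, lipoprotein lipase, was lower, at 9099.6, 8307 and 9793 in M_FIP and 18715, 19811 and 18764 in F_FIP (-1.08 ± 0.12). Pparg, at 142, 149.8 and 193 in M_FIP and 142, 151 and 122 in F_FIP, was not called (0.21 ± 0.13, adjusted p = 0.191). All 10 markers of the F3 stromal regulator type, CD142-positive cells that restrain adipogenesis, differed, 7 higher, among them Fmo2 (1.64) and Meox2 (1.52), and 3 lower, among them Clec11a (-1.11). Of 19 adipogenic transcription factors 3 were higher, among them Cebpb (0.62), and 5 lower, among them Gata2 (-2.51) and Ebf3 (-1.27). The median of that list was 0.05, and over all autosomal genes 19.5% were higher and 20.9% lower. Gata2, which restrains adipocyte differentiation, read 52.0, 74.0 and 69.9 in M_FIP and 394, 357 and 371 in F_FIP.

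Several marker lists of other cell types were higher in M_FIP as well. All 8 adipocyte markers, each of them a member of the lipid storage list as well, were higher in M_FIP, with a summed level of 542 to 598 in M_FIP and 196 to 266 in F_FIP. Here and below a sum takes in all autosomal markers of a list, tested or not. Macrophage markers were higher for 9 of 11 tested and none was lower (summed level 448 to 637 in M_FIP and 187 to 252 in F_FIP). Among them Ptprc, the leukocyte antigen CD45, read 19.8, 25.0 and 17.1 in M_FIP and 0, 2.56 and 4.98 in F_FIP (2.95 ± 0.47, and 2.21 without replicate 1 of F_FIP). Adgre1, the antigen F4/80, read 15.1, 25.9 and 17.1 in M_FIP and 1.66, 3.41 and 0.995 in F_FIP (2.79 ± 0.47). Mural markers were higher for 7 of 10 (summed level 2084 to 2334 in M_FIP and 976 to 1018 in F_FIP) and endothelial markers for 8 of 11 (6427 to 7507 in M_FIP and 5693 to 6293 in F_FIP), none of either list lower. Pecam1 of endothelium read 534, 550.3 and 433 in M_FIP and 184, 156 and 153 in F_FIP. Des of mural cells read 975, 986 and 1114 in M_FIP and 261, 269.5 and 344 in F_FIP. Of 13 epithelial markers 2 were tested, Krt8 and Cldn3, and both were higher. Krt8, a mesothelial marker too, read 30.2, 26.8 and 21.1 in M_FIP and 11.6, 7.68 and 10.9 in F_FIP, and Cldn3 read 43.5, 43.7 and 39.0 in M_FIP and 10.8, 11.1 and 14.9 in F_FIP. The 13 summed to 77.2 to 93.6 in M_FIP and 35.0 to 40.8 in F_FIP, with Cdh1, Esrp1 and Wfdc2 without a read in M_FIP. Krt8 lost its call without replicate 2 of F_FIP (adjusted p = 0.0616), without replicate 1 of M_FIP (adjusted p = 0.0508) and with edgeR on the reads (adjusted p = 0.0616). Mesothelial markers overlapped in sum (4109.9 to 4345 in M_FIP and 3974 to 4384 in F_FIP), with 3 of 10 higher, among them Msln (1.57), and Calb2 without a read. Of 16 epididymal and germ cell markers 9, such as Crisp1, Lcn5 and Tnp1, had no read in the 6 libraries, and Rnase10 was lower in males (19.8, 9.81 and 9.75 in M_FIP and 103, 91.3 and 85.6 in F_FIP). That list summed to 23.6 to 51.0 in M_FIP and 110.5 to 129 in F_FIP. No lymphocyte marker reached the minimum (summed level 8.5 to 16.9 in M_FIP and 6.82 to 10.9 in F_FIP, with Cd3d at 0). Of 14 ovarian markers 2 did (57.6 to 85.3 in M_FIP and 35.8 to 50.3 in F_FIP, with Fshr, Cyp19a1 and Oosp1 at 0), of which Gdf9 was called higher in males (0.74), a call that ended without replicate 2 of F_FIP or replicate 2 or 3 of M_FIP (adjusted p 0.0603 to 0.0916). The part that other cells played in the lipid, immune and vascular results was not tested.

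**Figure D4:**
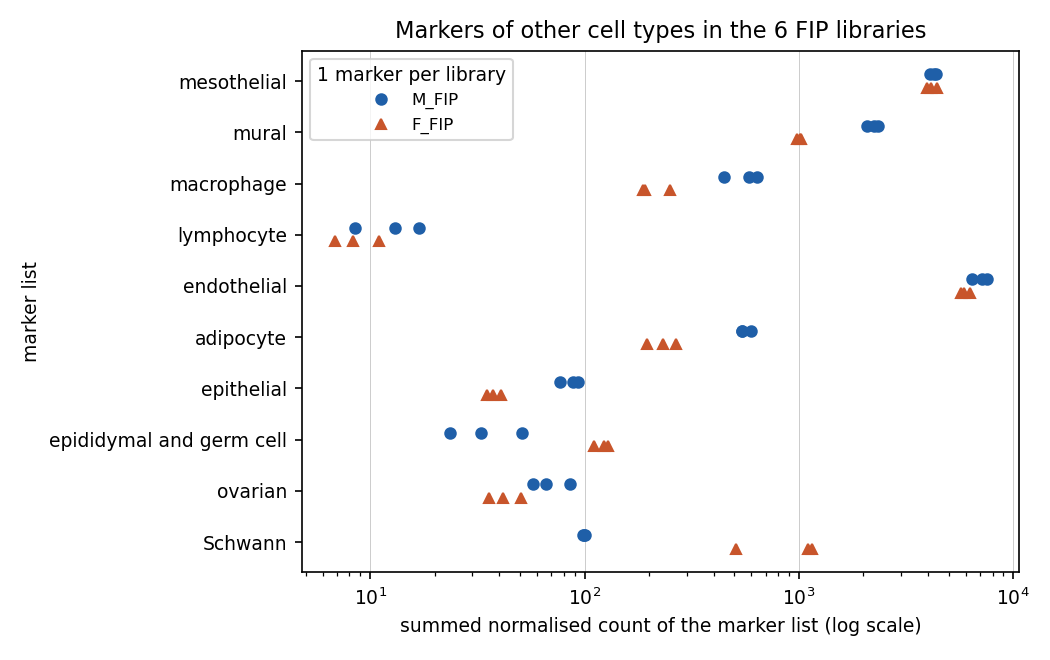
Summed normalised count of each marker list of another cell type in the 6 libraries, on a log axis; circles are M_FIP and triangles F_FIP, 1 per library. Macrophage, mural, endothelial, adipocyte, epithelial and ovarian sums are higher in every male library. Mesothelial and lymphocyte sums overlap. The Schwann sum and the epididymal and germ cell sum are lower in males.

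Cholesterol synthesis was among the lists with the largest share of members higher in males. Of 21 tested genes 17 were higher and 1 lower, with a median of 1.15. Along the pathway, Hmgcs1, the HMG-CoA synthase, read 1102, 1279 and 1015 in M_FIP and 797, 842 and 604 in F_FIP (log2 fold change 0.61 ± 0.15, adjusted p = 0.00206). Pmvk, a mevalonate pathway kinase, read 143, 136 and 136 in M_FIP and 35.7, 43.5 and 37.8 in F_FIP (1.80 ± 0.15). Fdps, which makes farnesyl diphosphate, read 209, 243 and 162 in M_FIP and 65.6, 52.0 and 45.8 in F_FIP (1.88 ± 0.16). Sqle, squalene epoxidase, read 343, 379 and 292 in M_FIP and 115, 93.8 and 83.6 in F_FIP (1.79 ± 0.14). The groups did not overlap for any of these 4 genes, beside 27.7% of all autosomal genes with every male library higher. Srebf2, the transcription factor that drives the pathway, was higher as well, at 2483, 2645 and 2452 in M_FIP and 1158, 1092 and 958 in F_FIP (1.24 ± 0.10). Dhcr7 was the lower gene (-0.54, adjusted p = 0.0193), a call that ended without replicate 3 of F_FIP or replicate 1 of M_FIP. The sex difference of FIP differed from that of APC by limma for 0 of the 21 genes (4 at an unadjusted p under 0.05, and 0 with edgeR and with DESeq2), beside 12.2% of all autosomal genes. It differed from that of DPP4_pos for 12, beside 38.2% of all. In fatty acid synthesis 8 of 14 genes were higher (5 without replicate 3 of F_FIP and 4 without replicate 3 of M_FIP) and 1 lower, with Fads1 (0.65), Scd1 (0.62), Thrsp (1.06) and Acacb (0.59) called. Thrsp lost its call without replicate 3 of M_FIP (adjusted p = 0.0639), and Acacb without any library but replicate 1 of F_FIP (adjusted p 0.0510 to 0.140).

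Interferon-stimulated genes were lower in M_FIP. Type I interferon acts through a complex with STAT2 and IRF9 on a short promoter motif, the interferon-stimulated response element. Of 32 tested genes of the response 0 were called higher by limma and 23 lower, with a median of -0.67. Ifit1 (chromosome 19, 34640889 to 34650009), which binds foreign RNA, read 442, 433 and 397 in M_FIP and 1423, 1482 and 2115 in F_FIP (log2 fold change -1.96 ± 0.22, adjusted p = 8.67e-08). Replicate 3 of F_FIP was the highest library, and without it the value was -1.78. Gbp2, a guanylate-binding protein gene, read 2431, 2282 and 2333 in M_FIP and 4621, 4834 and 6221 in F_FIP (-1.14 ± 0.14). Stat2 itself read 994, 908 and 1093 in M_FIP and 1775, 1793 and 1918 in F_FIP (-0.88 ± 0.09). Isg15, a ubiquitin-like modifier gene, read 178, 164 and 148 in M_FIP and 287, 289 and 298 in F_FIP (-0.84 ± 0.21). In all 4 the male and female libraries did not overlap, beside 32.5% of all autosomal genes with every male library lower. Among low genes, Oas1g (-2.08), Ifi44 (-1.47) and Mx1 (-1.36) were also lower. Oas1g has near-identical copies. The fold changes of Rsad2 (-0.04), Ifih1 (-0.04) and Ifit2 (0.08) were close to 0 and none of these was called.

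The promoters of 4 of these genes are shown with the motif, and that of Hmgcs1 with the sterol regulatory element that SREBF2 binds. Each is the 250 bases before the gene's start (RefSeq, GRCm38.p6), 5′ to 3′ on the gene's strand, with matches in capitals. The interferon motif was searched on both strands as 2 copies of GAAA with any 2 bases between them (TTTC on the other strand), and the sterol motif as TCACNCCAC, or GTGGNGTGA. Overlapping interferon matches were joined in Isg15.
Ifit1, chr19:34640639-34640888, plus strand: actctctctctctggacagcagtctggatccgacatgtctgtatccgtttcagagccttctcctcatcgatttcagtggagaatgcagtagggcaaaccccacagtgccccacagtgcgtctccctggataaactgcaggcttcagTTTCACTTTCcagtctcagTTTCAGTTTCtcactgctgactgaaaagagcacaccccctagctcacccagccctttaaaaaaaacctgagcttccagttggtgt
Gbp2, chr3:142620413-142620662, plus strand: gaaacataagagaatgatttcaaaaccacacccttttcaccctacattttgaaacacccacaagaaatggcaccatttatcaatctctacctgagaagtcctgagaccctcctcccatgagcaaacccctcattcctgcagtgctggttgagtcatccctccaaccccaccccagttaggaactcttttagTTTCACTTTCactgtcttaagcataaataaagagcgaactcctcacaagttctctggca
Stat2, chr10:128270248-128270497, plus strand: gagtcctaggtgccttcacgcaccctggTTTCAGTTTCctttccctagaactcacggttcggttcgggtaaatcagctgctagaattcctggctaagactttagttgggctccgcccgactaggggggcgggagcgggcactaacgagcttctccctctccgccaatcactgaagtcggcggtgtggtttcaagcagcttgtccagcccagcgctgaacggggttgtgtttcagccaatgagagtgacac
Isg15, chr4:156200819-156201068, minus strand: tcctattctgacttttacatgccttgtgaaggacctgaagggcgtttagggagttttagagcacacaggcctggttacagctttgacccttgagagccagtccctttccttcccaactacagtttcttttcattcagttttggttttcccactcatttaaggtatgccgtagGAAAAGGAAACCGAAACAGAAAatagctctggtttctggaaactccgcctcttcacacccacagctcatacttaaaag
Hmgcs1, chr13:119690101-119690350, plus strand: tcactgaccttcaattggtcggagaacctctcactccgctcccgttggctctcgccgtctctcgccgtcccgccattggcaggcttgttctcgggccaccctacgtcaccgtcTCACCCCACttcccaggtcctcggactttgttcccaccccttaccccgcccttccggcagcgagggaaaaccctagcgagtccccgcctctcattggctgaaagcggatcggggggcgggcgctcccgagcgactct

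Promoter windows of 300 bases, 250 before and 50 after the start, were on hand for 23 of the 32 interferon genes, and 15 of the 23 (65.2%) held the interferon motif. Of the 9686 tested autosomal genes with a window, 358 did (3.70%), and so did 3.44% of all 32851 windows. The motif was in 117 of 2018 genes called lower in M_FIP (5.80%) and in 46 of 1860 called higher (2.47%). The sterol motif was in 1 of 13 cholesterol genes with a window, Hmgcs1, beside 130 of 9686 tested genes (1.34%) and 1.24% of all windows. Of the 15 genes with the motif 11 were called lower, and Rsad2, Ifih1, Bst2 and Oas3 were not called (73.3% lower). Of the 8 with a window and no motif 6 were called lower (75.0%).

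Neighbouring immune lists differed among themselves. Of 7 genes of the Ifi200 family 6 were lower and Ifi202b was higher. Ifi204 read 6932, 6217 and 6514 in M_FIP and 10533, 10684 and 11449.8 in F_FIP (-0.73 ± 0.08). Ifi202b read 1300.0, 1314 and 1087 in M_FIP and 29.9, 57.1 and 42.8 in F_FIP (4.84 ± 0.24). Of 10 CXC chemokines 4 were higher and 6 lower, and the interferon-induced ones were lower: Cxcl10 read 922, 947 and 952 in M_FIP and 5041, 5099 and 7366 in F_FIP (log2 fold change -2.61 ± 0.20, adjusted p = 1.30e-10). Cxcl9 read 195, 189 and 169 in M_FIP and 814, 736 and 1154 in F_FIP (-2.26 ± 0.23). In MHC class I presentation 4 of 18 genes were lower, among them Nlrc5 (-1.21), Tap1 (-0.93) and B2m (-0.49), and H2-T23 was higher (0.79). That share is close to the 20.9% lower over all autosomal genes, and the median of the list was -0.04. B2m read 9486, 9488 and 8802 in M_FIP and 12729, 12798 and 13557 in F_FIP.

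Cytokines and acute-phase genes were mostly higher in male cells. Of 25 interleukins, IL-6 family and colony-stimulating factor genes 13 were higher and 7 lower. Csf2, the growth factor GM-CSF, read 275, 277 and 267 in M_FIP and 10.8, 19.6 and 14.9 in F_FIP (log2 fold change 4.13 ± 0.29, adjusted p = 3.29e-11). Lif, an IL-6 family cytokine, read 1873, 1803 and 1779 in M_FIP and 263, 220.0 and 224 in F_FIP (2.95 ± 0.19). Tnf read 62.4, 58.0 and 34.9 in M_FIP and 7.48, 3.41 and 9.95 in F_FIP (2.79 ± 0.33). The IL-33 receptor gene Il1rl1 was lower, at 50.1, 46.4 and 34.9 in M_FIP and 268, 265 and 210.0 in F_FIP (-2.48 ± 0.21). The neutrophil chemokine gene Cxcl2 read 2906, 2938 and 2844 in M_FIP and 425, 403 and 488 in F_FIP (2.72 ± 0.12). In the acute-phase list 9 of 13 were higher and 2 lower, with a median of 1.50. Hp, the haptoglobin gene, read 3782, 3475 and 3834 in M_FIP and 278, 326 and 406 in F_FIP (3.47 ± 0.38). Pla2g2e, a secreted phospholipase gene, read 82.2, 84.7 and 95.1 in M_FIP and 4.15, 5.97 and 7.96 in F_FIP (3.69 ± 0.28). In the complement list 9 of 19 were higher and 3 lower, among them C7 and the receptor genes C5ar1 (2.69) and C3ar1 (2.31, and 2.89 without replicate 3 of F_FIP), which macrophages also express. Of 12 CC and CX3C chemokines 5 were higher, among them Ccl6 (2.01) and Ccl9 (1.94), and 3 lower, among them Ccl8 (-1.62). The macrophage markers given above were also higher in M_FIP, and their part in these results was not tested.

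The matrix differed in composition rather than in 1 direction. Of 25 collagen genes 7 were higher and 8 lower. Col8a1, a short-chain collagen, read 834, 1174 and 910.1 in M_FIP and 68.1, 96.4 and 52.7 in F_FIP (log2 fold change 3.76 ± 0.22, adjusted p = 1.45e-12). Col6a5 read 14151, 14959 and 16518 in M_FIP and 4376, 4467 and 4329 in F_FIP (1.79 ± 0.32). Of the type IV collagens of basement membranes, Col4a4 (1.56), Col4a3 (1.22) and Col4a2 (0.57) were higher, while Col4a1 (0.30) was not called. Col15a1 (0.27) and Col18a1 (0.29) were not called either. Of the fibrillar collagens, Col3a1 read 141845, 179148 and 193443 in M_FIP and 296690.0, 293721 and 233634 in F_FIP (-0.68 ± 0.16, adjusted p = 0.00164), and Col5a3 (-0.55) and Col1a1 (-0.39) were lower too, whereas Col1a2 (-0.10), Col5a1 (-0.26) and Col5a2 (-0.12) were not called. The 3 main chains of collagen VI were lower, with log2 fold changes of -0.51 for Col6a1, -0.36 for Col6a2 and -0.70 for Col6a3. In the basement membrane list 9 of 19 were higher and 3 lower, with the laminin genes Lamc3 (2.55) and Lama5 (1.41) and the calcium-binding matrix gene Smoc1 (2.71). Of 29 fibronectin and elastic fibre genes 7 were higher, among them Tnc (2.50), and 11 lower. Postn, the periostin gene, read 12705, 16642 and 15162 in M_FIP and 42146, 43063 and 45712 in F_FIP (-1.56 ± 0.11). The microfibril gene Mfap2 read 374, 451 and 491 in M_FIP and 2005, 1900.2 and 1729.7 in F_FIP (-2.10 ± 0.11). Among metalloproteases and their inhibitors 12 of 24 were lower and 3 higher. Mmp3, stromelysin 1, read 63.3, 80.3 and 74.8 in M_FIP and 689, 677 and 484 in F_FIP (-3.05 ± 0.18).

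Growth factor pathways shifted gene by gene. In the BMP, TGF-beta, Wnt ligand and FGF lists the share called lower was close to the 20.9% over all autosomal genes. In the BMP list 7 of 20 were higher and 4 lower: the ligand genes Bmp4, at 139, 152 and 165 in M_FIP and 37.4, 35.8 and 37.8 in F_FIP, and Bmp2 (1.54) were higher, Bmp8a (-2.82) lower. In the TGF-beta list 8 of 24 were higher, with Tgfb1 at 283, 319 and 303 in M_FIP and 147, 129 and 163 in F_FIP (1.04 ± 0.11), and 5 lower. Among contractile and myofibroblast genes 6 of 14 were higher and 4 lower, among the higher ones Ctgf, which encodes a matricellular factor, at 3113, 3941 and 3477 in M_FIP and 852, 782 and 820.0 in F_FIP (2.09 ± 0.14). Ankrd1, which encodes an ankyrin repeat cofactor, was at 105, 101 and 95.1 in M_FIP and 13.3, 11.9 and 10.9 in F_FIP (2.96 ± 0.27). Of 11 Wnt and R-spondin ligands 4 were higher, among them Rspo3 (2.05) and Wnt11 (1.23), and 2 lower, Wnt2 and Wnt2b (-1.54). The secreted Wnt antagonist gene Sfrp1 read 2254, 2357 and 2720.4 in M_FIP and 687, 738 and 714 in F_FIP (1.77 ± 0.11) in a list of 15 with 6 higher and 6 lower. In the IGF list 4 of 15 were higher and 7 lower. Igfbp3, an IGF-binding protein gene, read 459, 424 and 337 in M_FIP and 1846, 1783 and 2892 in F_FIP (-2.39 ± 0.15). Pappa2, a protease that cleaves such proteins, read 113, 148 and 120.3 in M_FIP and 11.6, 6.82 and 6.97 in F_FIP (3.79 ± 0.32). Of 17 FGF genes 7 were higher, with the feedback inhibitor gene Spry1 (1.10) and the ETS transcription factor gene Etv4 (1.98); 3 were lower, among them the ligand gene Fgf10, at 443, 406 and 483 in M_FIP and 1192, 1115 and 1049.9 in F_FIP (-1.33 ± 0.14). Of 10 Hedgehog genes 4 were higher, among them the co-receptor gene Boc (0.96), and 3 lower, among them the signal transducer gene Smo (-0.62).

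Genes of nerve signalling showed opposite extremes. Of 12 neurotrophic factors and receptors 3 were higher and 6 lower, with a median of -0.48. Ret, the receptor for GDNF family ligands, read 429.9, 636 and 673 in M_FIP and 39.9, 36.7 and 24.9 in F_FIP (log2 fold change 4.06 ± 0.21, adjusted p = 1.49e-13). Ngfr was on the lower side. The growth factor gene Mdk read 19.8, 18.7 and 21.9 in M_FIP and 136, 118 and 140.3 in F_FIP (-2.64 ± 0.21). Schwann cell markers were lower for 3 of 3 tested, with a summed level of 98.1 to 101 in M_FIP and 512 to 1146 in F_FIP, of which Ngfr, itself on that list, was the main part in F_FIP. S100b read 11.3, 9.81 and 14.6 in M_FIP and 83.1, 88.7 and 82.6 in F_FIP (-2.75 ± 0.25). Their part in these results was not tested. In the axon guidance and adhesion list 14 of 34 were lower, with Cntn1 and Robo2 (-3.36); 9 were higher, among them Lrrn1, at 105, 126 and 165 in M_FIP and 5.82, 6.82 and 3.98 in F_FIP. Agt, angiotensinogen, read 858, 942 and 1216 in M_FIP and 63.1, 62.3 and 55.7 in F_FIP (4.02 ± 0.12) in the renin-angiotensin list, in which 3 of 11 were higher and 6 lower, with the clearance receptor gene Npr3 higher (2.21) and the renin gene Ren1 lower (-3.00, and -2.07 without replicate 1 of M_FIP).

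Ribosomal and mitochondrial genes differed little in size. Cytosolic ribosomal protein genes were lower for 24 of 44 (15 without replicate 3 of M_FIP) and higher for none, with a median of -0.28 and a largest change of -0.46 (Rps9). Of 36 oxidative phosphorylation genes 3 were lower, 1 without replicate 2 of F_FIP or any 1 library of M_FIP, and none higher. Proliferation genes were called higher for 6 of 32, close to the 19.5% of all genes, and lower for none, with a median of 0.62. That count was 2 without replicate 3 of F_FIP or replicate 2 of M_FIP, 1 without replicate 3 of M_FIP and 11 without replicate 1 of M_FIP. Cdc20, an activator of the anaphase-promoting complex, read 52.0, 77.6 and 71.5 in M_FIP and 33.2, 33.3 and 20.9 in F_FIP (1.18 ± 0.31). Birc5, Cdk1 and Plk1 lost their calls without replicate 3 of M_FIP, Birc5 and Cdk1 also without replicate 3 of F_FIP, Cdk1 and Plk1 without replicate 2 of M_FIP, and Plk1 without replicate 2 of F_FIP (adjusted p 0.0543 to 0.134). On the recovered reads edgeR called 15 and DESeq2 9 of the 32 higher. Of 24 immediate early genes, a class that cell isolation can induce, 10 were higher and 6 lower, with the nuclear receptor gene Nr4a3 at 2076, 2346 and 1983 in M_FIP and 626, 567 and 684 in F_FIP (1.77 ± 0.19). Ier3 was at 3165, 3226 and 3232 in M_FIP and 1025, 1006 and 944 in F_FIP (1.69 ± 0.09). In glycolysis and hypoxia 8 of 23 were higher and 4 lower (2 without replicate 1 or 2 of F_FIP or replicate 2 or 3 of M_FIP), with the glucose transporter gene Slc2a1 at 445, 444 and 429 in M_FIP and 1133, 1073 and 1139.5 in F_FIP (-1.34 ± 0.09). Of 8 NADPH oxidase genes 2 were higher and 3 lower, the latter with the dual oxidase gene Duox1 (-1.32) and that of its maturation factor, Duoxa1 (-1.38). The lists of lysosomal genes (8 of 26 higher, 5 lower), glutathione and xenobiotic genes (8 of 28 and 5) and the integrated stress response (6 of 16 and 6) went both ways. Without replicate 1 of F_FIP or replicate 3 of M_FIP 5 lysosomal genes were higher, and without replicate 2 of F_FIP or replicate 2 or 3 of M_FIP 3 glutathione genes were lower.

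The sex difference of FIP was set against those of the other subpopulations, which share no library with it. Called genes there were 23.9% higher and 23.6% lower in APC, 28.3% and 30.7% in DPP4_neg, and 29% and 27.2% in DPP4_pos. Of the 2396 genes higher in M_FIP 69.2% were also higher in M_APC, which is 56.4% of the genes higher there, and 2.75% were lower. Of the 2569 lower in M_FIP 66.7% were lower in M_APC, 59.0% of the genes lower there. In inguinal DPP4_pos cells 56.1% of the higher and 50.7% of the lower genes were shared, and 10.6% and 15.4% were called the other way. In DPP4_neg cells 54.3% and 51.0% were shared, and 15.9% and 17.2% were called the other way. Across the 12298 genes the log2 fold changes of FIP correlated with those of APC with r = 0.758. The r was 0.444 for DPP4_pos and 0.313 for DPP4_neg. These values are a description over genes that share libraries. In all 4 subpopulations 801 genes were higher in males, 33.4% of those higher in M_FIP, and 671 lower, 26.1% of those lower in M_FIP. C7 had like values everywhere, with log2 fold changes of 4.47, 4.34, 4.18 and 4.47 in FIP, APC, DPP4_neg and DPP4_pos.

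The difference between the sex differences of FIP and APC passed the test for 1503 autosomal genes (12.2%), 756 higher (6.15%) and 747 lower (6.07%). The absolute sex difference was larger in FIP for 516 of them and smaller for 987, and its sign was opposite for 624. Csf2, the first of the higher genes, read 275, 277 and 267 in M_FIP, but averaged 7.41 ± 3.5 in M_APC and 19.3 ± 5.42 in F_APC, a difference of 5.46 ± 0.41 (adjusted p = 1.69e-09). Csf2 was called lower in M_APC than in F_APC (-1.34 ± 0.29, adjusted p = 0.00048). In inguinal cells Csf2 was higher in males, by 3.85 ± 0.29 in DPP4_pos and 2.68 ± 0.29 in DPP4_neg. Its sex difference in FIP was not called different from that in DPP4_pos (0.28 ± 0.41, adjusted p = 0.633). Prrt4 (4.15 ± 0.60), Ankrd1 (3.56 ± 0.38) and Papln (3.53 ± 0.27), a matrix gene, also had sex differences further toward males in FIP than in APC. Ankrd1 was not called in APC (-0.60 ± 0.27, adjusted p = 0.0677). Clic6 had the opposite form: it read 342, 309 and 314 in M_FIP and 476, 459 and 396 in F_FIP and was not called in FIP (-0.46 ± 0.28, adjusted p = 0.201), while it averaged 841 ± 60.7 in M_APC and 54.3 ± 13.7 in F_APC. Tmem132b (-4.37 ± 0.73), Necab1 (-3.06 ± 0.76) and Alcam (-2.47 ± 0.43) were lower in males by more in FIP than in APC. Alcam, an adhesion molecule gene, read 32.1, 35.7 and 27.6 in M_FIP and 490.2, 510.0 and 527 in F_FIP. Ribosomal protein genes differed in 31 of 44 cases, with a median sex difference of -0.28 in FIP and -0.82 in APC.

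**Figure D5:**
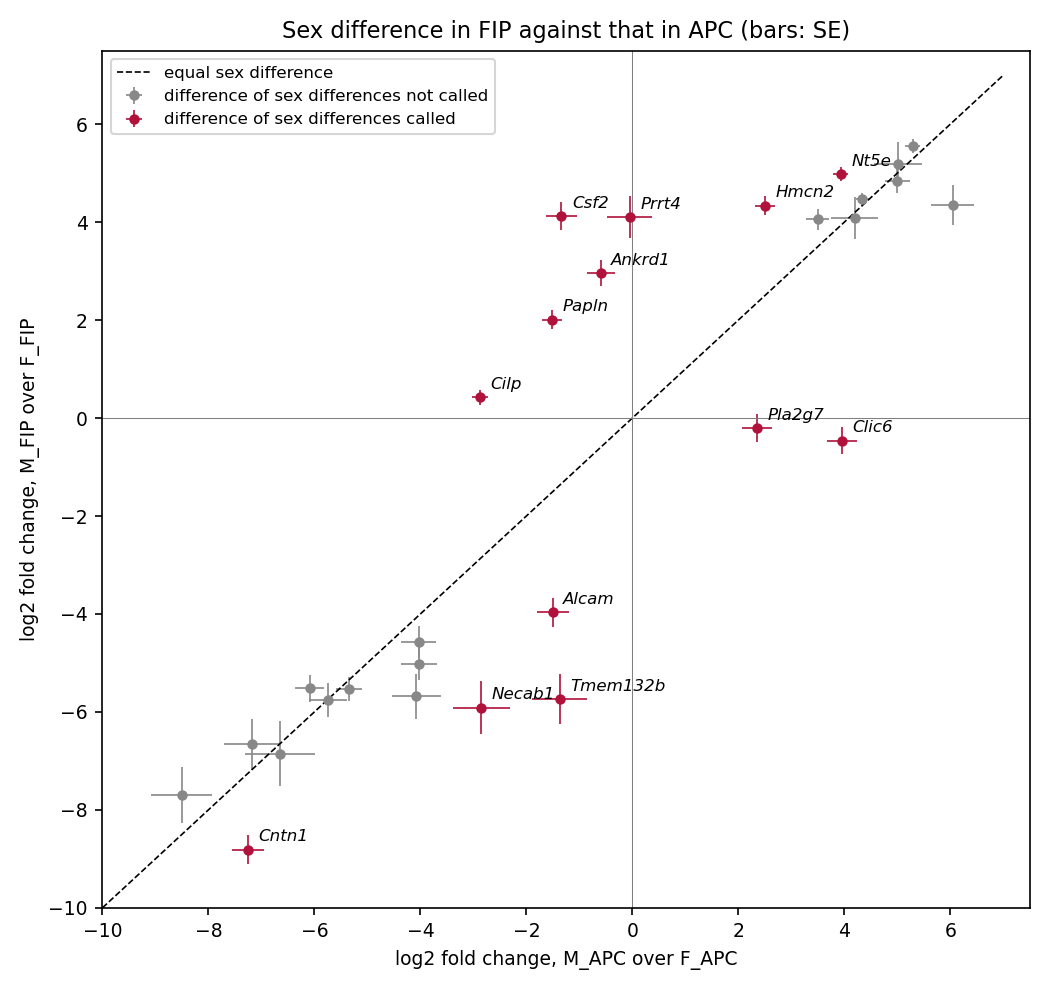
Log2 fold change of male over female in FIP (vertical axis) against APC (horizontal axis) for the same 23 genes of largest FIP difference and the 10 genes named for the difference of FIP from APC; error bars are SE and the dashed line marks equal sex differences. Red, labelled genes passed the test of the difference. Between FIP and APC, Csf2 and Prrt4 were higher in males in FIP only, and Clic6 and Pla2g7 in APC only.

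Against DPP4_pos, inguinal cells that share Dpp4 with FIP, 4693 genes passed the test (38.2%), 2080 higher (16.9%) and 2613 lower (21.2%). Cadps had a difference of 6.50 ± 0.63, with an average of 1.89 ± 2.35 in M_DPP4_pos, and Enpp6 of 5.38 ± 0.62. Cntn1 (-6.83 ± 0.42) and Hoxc10 were on the lower side. For Krt8 (7.45 ± 0.57), Adamts19 (5.01 ± 0.36), Celf4 (5.16 ± 0.41), Cxcl5 (-6.02 ± 0.34) and Il18r1 (-5.27 ± 0.50) the difference came with larger or opposite sex differences in the inguinal cells, such as 5.35 for Cxcl5 in DPP4_pos and -0.67 in FIP. The interferon list had a median sex difference of -0.67 in FIP and -0.80 in APC, and -0.03 in DPP4_pos and 0.60 in DPP4_neg. The difference of FIP from DPP4_pos passed the test for 20 of its 32 genes, for Ifit1 at -1.56 ± 0.31 (adjusted p = 0.000320).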

How the data were processed

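Per the labels, PDGFRb-positive cells were isolated by flow cytometry, total RNA was extracted in Trizol, and the libraries come from a NEBNext Ultra II kit. The submitters' processing notes name featureCounts 1.4.6, DESeq2 1.6.3, HISAT2 2.0.1 and Trim Galore 0.4.1. Sort gates, strand setting and annotation: not given in the sources used here. Deposited were values of normalized signal, read counts that the authors divided by 1 size factor per library: in each library 100% came out as whole reads (tolerance 0.01 read) once multiplied by 1 number. Of the identifiers, 25275 (93.0%) matched RefSeq GRCm38.p6.

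Values were tested as log2(value + 1) with limma 3.58.1 in R 4.3.3, with a mean-variance trend and 8 group means over all 24 libraries (16 residual degrees of freedom), over 12946 genes. The difference between 2 sex differences was a contrast of the same fit. Alternatives were other filters, pseudocounts and scalings, fewer libraries, a replicate block, and edgeR 4.0.16 and DESeq2 1.42.0 on the recovered reads. The fit was tested on simulated data. No set test was run. Some members of the lists are not reported here.

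Named genes were called, without overlap and averaging 100 or more in 1 group (12 highest, 12 lowest), or were up to 4 called members of a list, all interstitial progenitor genes, or the 5 highest and 5 lowest called for each difference. HOX genes, Pdgfrb, the preadipocyte markers, the genes with promoters and the collagens and other members of the cholesterol and interferon lists were named in addition, with their values seen. The comparison, the lists and the named genes were chosen with earlier results of these data known. A group without reads was set to a floor of 3 reads. Intervals are 95% Clopper-Pearson.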

Additional observations from a re-analysis of the deposited data

Results flagged for a closer look

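The sex difference of FIP differed from that of APC, by the test of the difference itself, for 13 of the genes picked out here. The difference, on the log2 scale, was 5.46 for Csf2, 4.15 for Prrt4, 3.56 for Ankrd1, 3.53 for Papln, 3.30 for Cilp, 1.84 for Hmcn2 and 1.05 for Nt5e. It was -4.42 for Clic6, -4.37 for Tmem132b, -3.06 for Necab1, -2.56 for Pla2g7, -2.47 for Alcam and -1.56 for Cntn1.

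Against inguinal DPP4_pos cells, the genes given are the 5 highest and 5 lowest called, so that passing the test was again the condition of choice. The difference was 7.45 for Krt8, 6.50 for Cadps, 5.38 for Enpp6, 5.16 for Celf4 and 5.01 for Adamts19. It was -7.09 for Hoxa11os, -6.83 for Cntn1, -6.02 for Cxcl5, -5.40 for Hoxc10 and -5.27 for Il18r1. Cilp was called in FIP itself (0.43), a call that ended when replicate 3 of F_FIP was left out (adjusted p = 0.213) and when replicate 2 of M_FIP was (adjusted p = 0.181). The call of Cxcl5 in FIP (-0.67) ended with edgeR (adjusted p = 0.112), with DESeq2 (adjusted p = 0.0888) and without replicate 1 or 3 of F_FIP or replicate 1 or 3 of M_FIP (adjusted p 0.0635 to 0.233).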

How the results depend on the processing

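A minimum of 50 in 3 libraries, which tests fewer genes, left 469 genes past 2-fold higher and 279 lower. Leaving out 1 FIP library at a time gave 2042 to 2179 genes higher and 2129 to 2220 lower, and past 2-fold 710 to 754 and 444 to 460. Without 1 library of those compared, 583 to 748 and 543 to 727 genes were called higher and lower for the difference from APC, and 1792 to 1975 and 2311 to 2498 for that from DPP4_pos. The other counts over all genes stayed within 1.5 times. Among list counts, the fit of the 6 FIP libraries alone called 41 of 44 ribosomal genes, 9 oxidative phosphorylation genes and 11 interstitial markers lower, and 11 collagens, 7 retinoid, 5 steroid receptor, 19 proliferation, 6 mesothelial, 3 oxidative phosphorylation genes and 1 interferon gene higher. EdgeR called 7 retinoid genes higher, 2 glycolysis genes and 1 oxidative phosphorylation gene lower. With the minimum of 50, 4 HOX genes were lower and 3 macrophage markers and 5 complement genes higher, and with no filter 17 depot transcription factors were lower and 8 higher. Among 257 named genes under 17 alternatives no called direction reversed, and 3 uncalled genes near 0, Cd248, Hoxc9 and Hoxd8, changed sign. Of 239 calls 218 held under every alternative that tested the gene, and the minimum of 50 tested 199 of the 257. The scalings kept the sign of every list median named in the report. Same-numbered libraries of the sexes did not deviate together (r = -0.0787, -0.0194 and -0.0697). With 3 libraries a group this cannot decide whether the numbers pair samples, and same-numbered FIP and APC libraries were not compared in this way. With a replicate block 2377 genes were higher and 2539 lower, and with the 6 FIP libraries alone and that block 2915 and 3248. Fold changes of genes near 0 in a group depend on the pseudocount, such as -5.75 for Hoxa10 and -4.39 with a pseudocount of 5. With 3 libraries a group, small differences of low genes could go undetected at this depth.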
